A study of Mus musculus with 19 samples.

Results

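The genes described here encode the killing machinery of CD8 T cells: the granzymes Gzma, Gzmb, Gzmk and Gzmm, the pore protein perforin (Prf1), Fas ligand (Fasl), interferon gamma (Ifng) and the granule proteoglycan serglycin (Srgn). They were chosen by name, and every probe set on the array with 1 of these 8 as its listed symbol was taken. That gave 8 of 12488 probe sets, 1 for each gene, and 8 of the 8251 genes with a probe set of their own.

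Cytotoxic lymphocytes kill by releasing granules toward a target cell or by presenting Fas ligand to Fas on its surface. In the granules, serglycin holds the granzymes, a family of serine proteases, and after release perforin opens the target's membrane to them. Interferon gamma is secreted separately and acts through a receptor on many cell types. Naive CD8 T cells placed in a host short of lymphocytes divide slowly without foreign antigen, a response called homeostatic proliferation, and come to resemble memory cells.

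Messenger RNA of OT-I cells was measured on 19 arrays. OT-I cells are mouse CD8 T cells that share 1 transgenic receptor for an ovalbumin peptide, and in all 4 groups they had been given to B6 mice and were later sorted out of lymph node and spleen (the label reads ln/spleen). The 3 irradiated groups were day 5 (n = 8), day 40 (n = 4) and day 115 (n = 3), and the fourth group came from unirradiated hosts sorted at day 6 (n = 4). The titles say day 5 where the descriptions of the same samples say sorted at day 6, and the descriptions of day-5 arrays 1 and 2 name no cell type. Unirradiated hosts were not sampled at the 2 later times, so the irradiated host and the time since transfer cannot be told apart there. The sources used here give no age, sex, radiation dose or host genotype beyond B6, and do not say which samples came from separate animals, so p-values measure the spread between these samples only.

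Signals are linear array intensities as deposited, with array medians of 49.6 to 53.7. Of 8 CD8 T cell markers 7 were on the array and all 7 were bright enough to be tested, with Cd8a at 1851 or more and Cd3e at 180 or more in every sample. Another of them, Thy1, differed between groups and is given with the other markers below. A second split ran across the groups. By correlation over all probe sets the arrays were cut into 2 clusters, a number that was set. Arrays of the same group had a median r of 0.9832 within a cluster against 0.9298 across clusters. These medians come from the correlations that made the clusters, so they describe the split and do not test it. In cluster 1 were 3 day-5 arrays (numbers 1 to 3), a pair of day-40 arrays (numbers 1 and 2) and the whole day-115 group. The remaining irradiated arrays and the whole unirradiated group made up cluster 2. No label names this split, so calls below that were lost when the cluster was added as a term are given with that value or its adjusted p. Listed genes that passed against unirradiated hosts only with the term are also given. Calls of a gene's dimmer probe sets are given from the fit on groups alone, without that check. For day 115 against unirradiated hosts no cluster holds both groups.

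Fas ligand, perforin and granzyme M were higher in the cells of day 40 and day 115 than in those of day 5 and of unirradiated hosts. Granzyme A and granzyme B did not differ past the threshold in any comparison, and granzyme K and interferon gamma stayed near the bottom of the array's range. Serglycin was lower at day 115 than in unirradiated hosts, but its signal followed the clusters. With the cluster as a term, the day-115 calls of serglycin and perforin against unirradiated hosts were lost. The threshold was an adjusted p under 0.05 in limma over all 8695 tested probe sets, and 6 of the 8 genes were bright enough to be tested. At day 5, 0 of these 6 passed against unirradiated hosts, where 0.794% of all tested probe sets did. At day 40, 3 of 6 were higher and 0 lower, beside 1.5% of all probe sets called in either direction and 1.16% higher. At day 115, 3 of 6 were higher and 1 lower, beside 27.9% called in either direction, 15.1% higher and 12.8% lower. Against day 5, 3 of 6 were higher at day 40, beside 1.25% of all probe sets called either way and 0.943% higher. The count was also 3 for day 115 against day 5, beside 13.9% called either way and 8.23% higher. Between day 115 and day 40, 0 of 6 passed, and 0.092% of all probe sets did. The median difference of the 6 from unirradiated hosts was 0.10 at day 5, 0.49 at day 40 and 0.43 at day 115 on the log2 scale, where the medians of all tested probe sets were 0.03, 0.03 and 0.01.

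**Figure D1:**
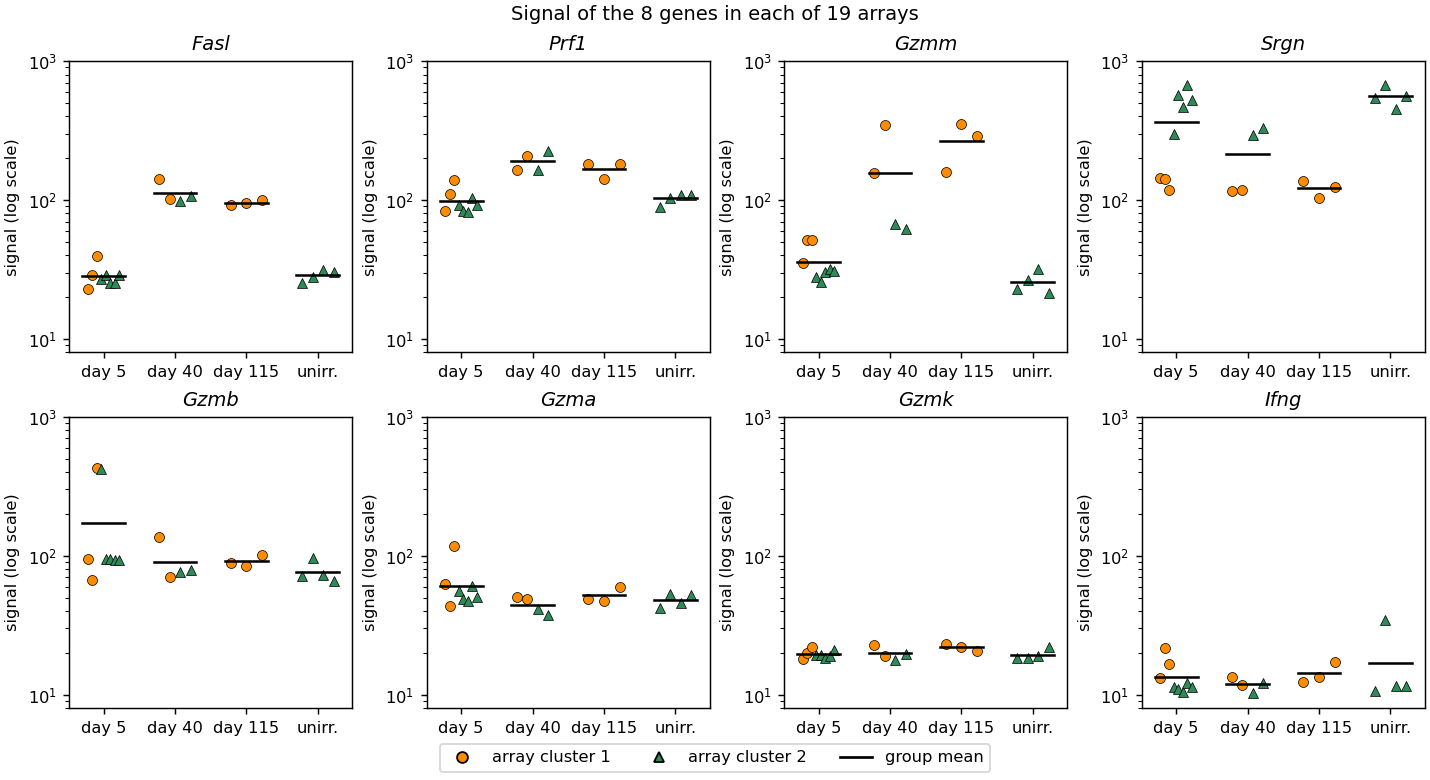
Signal of the 8 genes (linear intensity, log axis) in each of the 19 arrays, by group from day 5 to unirradiated hosts. Points are arrays, with their cluster marked, and bars are group means. Fasl lies at 91.8 or more in every day-40 and day-115 array and at 39.3 or less in every other array, while Gzmb exceeds 400 in 2 day-5 arrays.

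Fasl encodes the membrane ligand that triggers the death receptor Fas. Its signal at day 5 had a lowest value of 23.0, a median of 28.0 and a highest value of 39.3. At day 40 the 4 arrays read 141, 102, 97.7 and 108, and at day 115 the 3 arrays read 91.8, 95.4 and 99.2. The 4 unirradiated arrays read 25.4, 27.9, 31.5 and 30.1. Every later array lay above every early and every unirradiated one, and the day-5 range enclosed the whole unirradiated range. At day 40 Fasl averaged 112 ± 19.4, against 28.7 ± 2.69 in unirradiated hosts (SD, n = 4 each), a difference of 1.51 ± 0.10 on the log2(signal + 16) scale (SE, adjusted p = 9.53e-08). At day 115 it averaged 95.5 ± 3.71 (SD, n = 3), which was 1.32 ± 0.11 above unirradiated hosts (adjusted p = 1.14e-06). Against day 5, where it averaged 28.3 ± 4.93 (SD, n = 8), it was higher by 1.53 ± 0.09 at day 40 (adjusted p = 6.25e-09) and by 1.34 ± 0.10 at day 115 (adjusted p = 1.78e-07). Its difference between day 5 and unirradiated hosts was -0.02, with a 95% interval of -0.21 to 0.17 (adjusted p = 0.929). Day 115 and day 40 overlapped, with a difference of -0.19 and an interval of -0.42 to 0.04 (adjusted p = 0.437).

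The Fasl calls against unirradiated hosts and against day 5 held within each cluster that had both groups. Within cluster 2 the day-40 arrays exceeded the unirradiated ones by 1.41 (adjusted p = 7.47e-07), and within cluster 1 the day-115 arrays exceeded the day-5 ones by 1.28 (adjusted p = 0.017). The day-5 and unirradiated means lay just above the filter level of 26.4, with single arrays on both sides of it, and the size depended on the pseudocount. For day 40 against unirradiated hosts it came to 1.92 when 1 was added before the log and to 0.92 when 64 was added.

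Prf1 encodes perforin, and it was higher in the same late groups by a smaller difference. Its day-5 arrays ran from 81.8 to 139 with a median of 92.5. At day 40 Prf1 read 163, 209, 166 and 225, and at day 115 it read 181, 143 and 181. In unirradiated hosts it read 89.6, 103, 109 and 109. The late arrays all lay above the others, but the margin was narrow, since the lowest day-115 array had 143 and the highest day-5 array 139. Prf1 averaged 191 ± 30.8 at day 40, against 103 ± 9.14 in unirradiated hosts (SD, n = 4 each), a log2 difference of 0.79 ± 0.15 (adjusted p = 0.00828). At day 115 it averaged 168 ± 22.2 (SD, n = 3) and the difference was 0.63 ± 0.16 (adjusted p = 0.00959), but with the cluster as a term it was 0.50 and no longer passed (adjusted p = 0.132). Relative to day 5, at 98.4 ± 19.5 (SD, n = 8), Prf1 was higher by 0.86 ± 0.13 at day 40 (adjusted p = 0.00157) and by 0.70 ± 0.14 at day 115 (adjusted p = 0.00434). Within cluster 1 alone those last 2 differences were 0.68 (adjusted p = 0.46) and 0.55 (adjusted p = 0.157). Within cluster 2 the day-40 arrays exceeded the day-5 ones by 0.98 (adjusted p = 0.0016), and with the cluster as a term both calls were kept, at 0.84 (adjusted p = 0.000402) and 0.61 (adjusted p = 0.0129). Within cluster 2 the day-40 arrays exceeded the unirradiated ones by 0.82 (adjusted p = 0.00474). The differences of day 5 from unirradiated hosts, -0.07 with an interval of -0.33 to 0.20 (adjusted p = 0.813), and of day 115 from day 40, -0.16 with an interval of -0.49 to 0.17 (adjusted p = 0.631), did not pass.

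Gzmm encodes granzyme M, a protease that cuts after methionine and similar residues. Its day-5 arrays ran from 25.8 to 52.0 with a median of 31.2. The 4 day-40 arrays read 155, 345, 67.1 and 61.7, and the 3 day-115 arrays read 159, 352 and 287. Unirradiated hosts gave 22.7, 26.4, 31.9 and 21.3. All late arrays lay above all others, but the day-40 arrays themselves spread widely: the pair in cluster 1 had 155 and 345, and the pair in cluster 2 had 67.1 and 61.7. Gzmm averaged 157 ± 132 at day 40, against 25.6 ± 4.71 in unirradiated hosts (SD, n = 4 each), or 1.77 ± 0.35 higher on the log2 scale (adjusted p = 0.0127). Within cluster 2 that difference was 0.96 (adjusted p = 0.000262), and it was 1.34 with the cluster as a term (adjusted p = 0.00954). At day 115 Gzmm averaged 266 ± 98.5 (SD, n = 3), 2.70 ± 0.38 above unirradiated hosts (adjusted p = 0.000208), and 1.84 with the term (adjusted p = 0.00491).

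Compared with day 5, where it averaged 35.6 ± 10.3 (SD, n = 8), Gzmm was higher by 1.48 ± 0.30 at day 40 (adjusted p = 0.0187) and by 2.41 ± 0.33 at day 115 (adjusted p = 0.000307). The day-40 call was lost without day-40 array 1, although the difference was still 1.38 (adjusted p = 0.0648). Without day-40 array 2 the difference was lowest, at 1.03, and the call was kept (adjusted p = 0.0411). Within cluster 2 it was 0.83 (adjusted p = 0.000961), and within cluster 1 it was 2.01 (adjusted p = 0.137). Gzmm was the member with the largest estimated difference between day 115 and day 40, at 0.93 with an interval of 0.14 to 1.72, but it did not pass over all probe sets (adjusted p = 0.325), was 0.50 with the cluster as a term (adjusted p = 0.503) and was 0.11 within cluster 1. Day 5 and unirradiated hosts differed by 0.29, with an interval of -0.34 to 0.93 (adjusted p = 0.651). The unirradiated mean lay under the filter level, so these sizes depend on the pseudocount, and day 115 stood 3.27 above unirradiated hosts when 1 was added before the log and 1.83 when 64 was added.

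**Figure D2:**
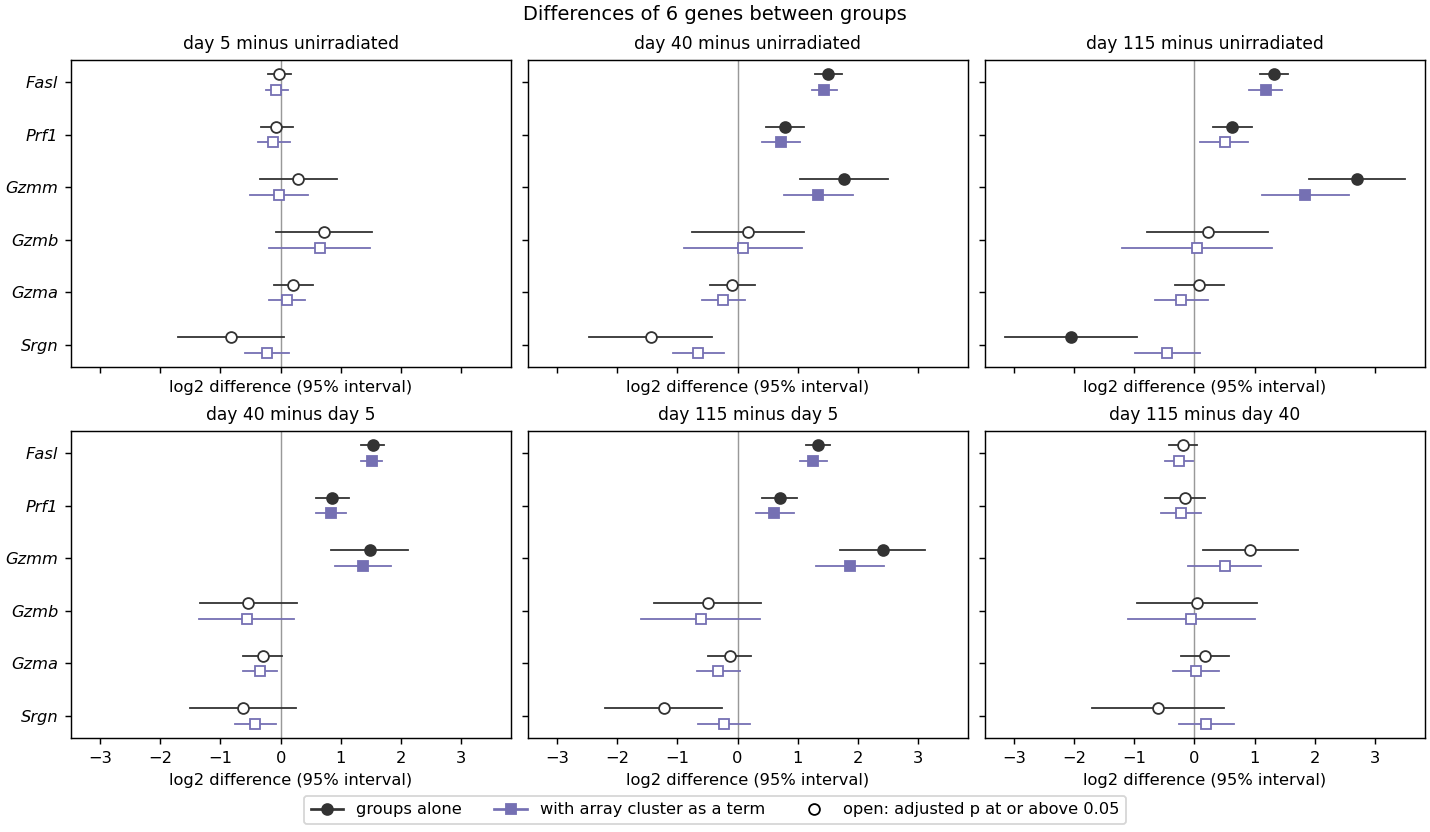
Log2 differences of the 6 tested genes in the comparisons of day 5, day 40 and day 115 with unirradiated hosts and between the irradiated groups, with their 95% intervals. Black circles are the fit on groups alone, purple squares the fit with the cluster as a term, and filled symbols have an adjusted p under 0.05. In the fit on groups alone the intervals of Fasl, Prf1 and Gzmm include 0 at day 5 against unirradiated hosts and lie above 0 at day 40 and day 115, where those of Gzma and Gzmb include 0.

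Gzmb encodes granzyme B, a protease that cuts after aspartate and can activate caspases. In its 8 day-5 arrays the signal was 94.4, 66.6, 426, 423, 95.3, 95.0, 93.7 and 93.4. At day 40 it was 136, 70.2, 76.4 and 79.5, and at day 115 it was 88.2, 83.8 and 101. Unirradiated hosts had 70.9, 96.2, 72.3 and 65.5. Day-5 arrays 3 and 4 stood far above all 17 others, and those others lay between 65.5 and 136. Array 3 belonged to cluster 1 and array 4 to cluster 2. Gzmb averaged 173 ± 155 at day 5 (SD, n = 8), against 76.2 ± 13.6 in unirradiated hosts (SD, n = 4), a log2 difference of 0.72 with an interval of -0.08 to 1.52 (adjusted p = 0.405). Without those 2 arrays, an alternative chosen after seeing the data, the difference was 0.20. At day 40 the difference was 0.18 with an interval of -0.75 to 1.11 (adjusted p = 0.863), and at day 115 it was 0.22 with an interval of -0.78 to 1.22 (adjusted p = 0.757). Relative to day 5, Gzmb differed by -0.54 at day 40 (adjusted p = 0.697) and by -0.49 at day 115 (adjusted p = 0.439).

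Gzma encodes granzyme A, a trypsin-like granzyme, and its probe set name carries a suffix that marks probes able to match several transcripts. Its day-5 arrays ran from 43.6 to 118 with a median of 52.8. At day 40 they read 50.5, 49.0, 41.1 and 37.5, at day 115 they read 49.0, 47.5 and 59.6, and unirradiated arrays read 42.2, 52.7, 45.8 and 52.1. The 4 groups overlapped, and the value of 118 belonged to day-5 array 3, the array that also had 426 for Gzmb. Day-5 array 4, with 423 for Gzmb, had 55.4 for Gzma, inside the range of the others. Against unirradiated hosts the log2 differences were 0.21 at day 5 (interval -0.11 to 0.54, adjusted p = 0.521), -0.09 at day 40 (interval -0.46 to 0.29, adjusted p = 0.829) and 0.08 at day 115 (interval -0.32 to 0.49, adjusted p = 0.777). The day-115 value was -0.22 with the cluster as a term (adjusted p = 0.567).

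**Figure D3:**
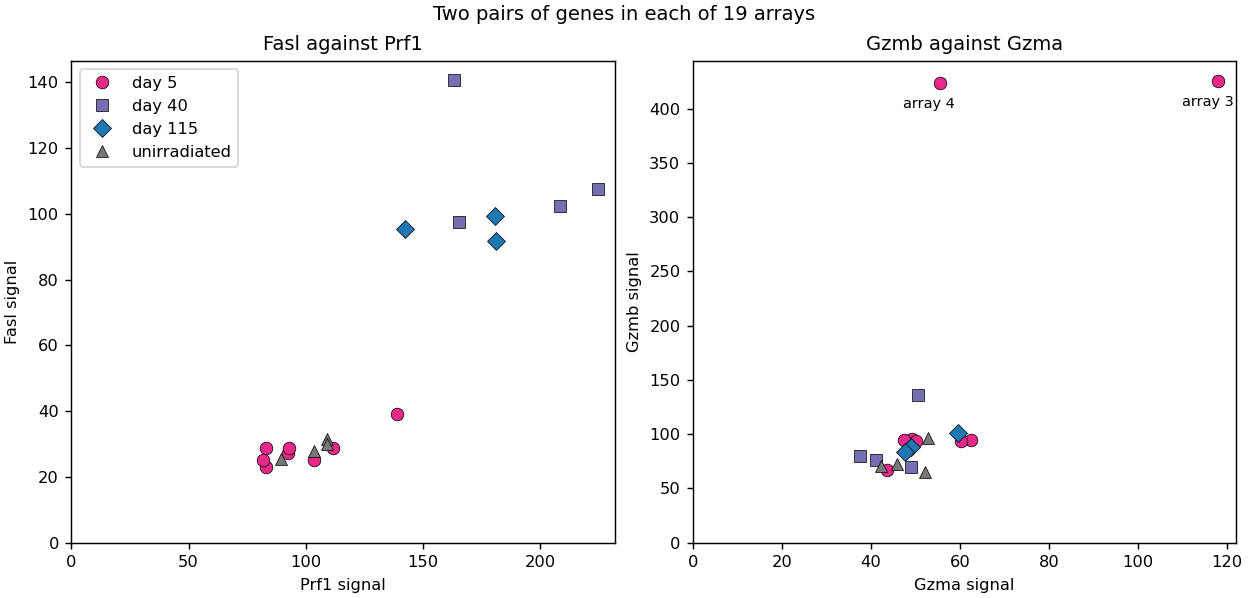
Left, Fasl signal against Prf1 signal, and right, Gzmb signal against Gzma signal, in each of the 19 arrays, both axes linear and starting at 0. The 7 arrays of day 40 and day 115 lie apart from the 12 others at the upper right in the left plot. In the right plot only day-5 arrays 3 and 4 leave the main group, with Gzmb at 426 and 423.

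Gzmk, the gene of another trypsin-like granzyme that is the neighbour of Gzma on chromosome 13, lay between 17.8 and 23.1 in all 19 arrays. Its mean of 20.0 was under the filter level, and 21.3% of the other probe sets had a lower mean. Exact 2-sided permutation tests against unirradiated hosts gave differences of 0.01 at day 5, 0.02 at day 40 and 0.10 at day 115, with adjusted p of 1.0, 1.0 and 0.858 over 6 tests. Ifng lay between 10.4 and 21.6 in 18 arrays and had 34.5 in unirradiated array 2. Its differences were -0.12 at day 5, -0.19 at day 40 and -0.07 at day 115, each with an adjusted exact permutation p of 1.0. The smallest unadjusted p these tests allow is 0.0286 at day 40 and at day 115 and 0.00202 at day 5. Signals at this level are close to the lowest of the table, so a low level of either transcript was not detectable on these arrays, and nothing is shown about protein.

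Srgn encodes the core protein of serglycin, whose sulfated chains bind granzymes and perforin, and its signal followed the clusters. At day 5 the 3 arrays of cluster 1 read 143, 143 and 117, and the 5 arrays of cluster 2 read 301, 572, 464, 671 and 524. At day 40 the cluster 1 pair read 117 and 117 and the cluster 2 pair 294 and 330. The day-115 arrays, all in cluster 1, read 137, 104 and 125, and the unirradiated arrays, all in cluster 2, read 541, 670, 454 and 563. Every array of cluster 1 therefore lay below every array of cluster 2. Srgn averaged 122 ± 16.5 at day 115 (SD, n = 3), against 557 ± 88.6 in unirradiated hosts (SD, n = 4), which is -2.05 ± 0.52 on the log2 scale (adjusted p = 0.0101). Fitting the cluster as a term left -0.45 (adjusted p = 0.308), and the part of the cluster in it cannot be told apart from that of the group. At day 40 the difference was -1.44 (adjusted p = 0.153), and within cluster 2 it was -0.79 (adjusted p = 0.125), with both day-40 arrays below the lowest unirradiated one. At day 5 it was -0.82 with an interval of -1.71 to 0.06 (adjusted p = 0.389), and within cluster 2 it was -0.17.

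With the cluster as a term, 2 of the 6 genes, Fasl and Gzmm, were called at day 115 against unirradiated hosts, where 4.42% of all tested probe sets were, and the day-40 count stayed at 3, where 2.23% were. In the day-40 comparison with unirradiated hosts the arrays did not overlap in Fasl, Prf1 and Gzmm (higher, as in 8.6% of all tested probe sets) and in Srgn (lower, as in 5.23%). At day 115 the same was true of those 3 genes (21.7%) and of Srgn (21%). Against day 5, Fasl, Prf1 and Gzmm did not overlap at day 40 (1.43% of all tested probe sets higher in this way) or at day 115 (5.78%).

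Of the 7 CD8 T cell markers 1 was called higher at day 115 and 0 lower, beside 15.1% and 12.8% of all tested probe sets. It was Thy1, at 2102 ± 205 against 998 ± 212 in unirradiated hosts (SD, n = 3 and 4), a difference of 1.08 (adjusted p = 0.00366). With the cluster as a term Thy1 stayed past the threshold at 1.01 (adjusted p = 0.0411), and at day 5 and day 40 it did not pass. Other cell types were looked for in the same arrays, since NK cells also carry granules and Fas ligand. Of 10 NK cell markers 6 were on the array, and their summed signal was 173 to 258 at day 5, 177 to 231 at day 40, 214 to 232 at day 115 and 178 to 190 in unirradiated hosts. Ncr1, a receptor that defines NK cells, had between 10.9 and 21.5 in all 19 arrays, below the filter level. Klra3, an NK receptor of the Ly49 family, rose at day 5 (0.45, adjusted p = 0.0486) and at day 115 (0.58, adjusted p = 0.00531), and averaged 36.8 at day 40, against 21.8 in unirradiated hosts. The day-115 call was lost with the cluster as a term, at 0.29 (adjusted p = 0.175). The day-5 call was lost on leaving out any one of 11 of the 12 arrays, with adjusted p up to 0.184. Of 12 B cell and plasma cell markers 11 were on the array, and their sum was 1342 to 2818 at day 5, 1673 to 3268 at day 40, 2689 to 4201 at day 115 and 1099 to 1334 in unirradiated hosts. At day 115, 4 of these 11 were called higher, beside 15.1% of all tested probe sets. They were H2-Aa (1.98), Ighm (1.92), Cd74 (1.51) and Jchain (0.96). Much of the B cell sum was Ighm, with a mean of 500 in unirradiated hosts and 1944 at day 115. With the cluster as a term Ighm stayed past the threshold at 0.95 (adjusted p = 0.00725) and Jchain at 1.20 (adjusted p = 0.0104). H2-Aa, at 1.07, and Cd74, at 0.67, did not. At day 40 Ighm passed only with the term, at 0.63 (adjusted p = 0.0266), against 1.11 without it (adjusted p = 0.0792). Other tested probe sets of Ighm gave -0.02 to 0.85 at day 115. Those at 0.68, 0.54 and 0.28 passed (adjusted p = 0.0258, 0.038 and 0.0223). The rest did not, the one at 0.85 among them (adjusted p = 0.0603). Of 14 myeloid cell and neutrophil markers 13 were on the array, and their sum was 1784 to 3233 at day 5, 1723 to 3290 at day 40, 1198 to 1962 at day 115 and 2676 to 3414 in unirradiated hosts. Of the 9 tested myeloid markers 1 was called lower at day 115 and 0 higher, beside 12.8% and 15.1% of all tested probe sets. It was Ctss, cathepsin S of antigen-presenting cells, which fell by 1.32 (adjusted p = 0.0242). Much of the myeloid sum was Ctss, with a mean of 2459 in unirradiated hosts and 1015 at day 115. The median difference of the 9 tested myeloid markers at day 115 was 0.12. With the cluster as a term Ctss was at -0.15 (adjusted p = 0.755). A dimmer probe set of the myeloid marker Csf1r was called higher at day 115, at 0.77 (adjusted p = 0.00897), where its brightest was at 0.18. On the array were 9 of 10 mast cell markers, 4 of 5 CD4 T cell markers and 1 of 5 gamma delta T cell markers, Sox13. Sums of these lists overlapped between each irradiated group and unirradiated hosts. In the CD4 list only Cd4 was bright enough to be tested. The mast cell marker Cma1 was 0.41 higher at day 115 (adjusted p = 0.0215), and 0.08 with the cluster as a term (adjusted p = 0.639). The part of these cells in the results above was not tested, and in such bulk samples a change in the share of cells that carry a transcript and a change in RNA per cell cannot be told apart.

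Genes of the same pathways were taken from 7 lists. In the list of granule exocytosis and granzyme processing, 12 of 21 genes were tested, and their median difference was 0.13 at day 40 and 0.06 at day 115. Ctsl, the lysosomal protease cathepsin L, was lower at all 3 times, with a mean of 29.6 at day 5, 26.8 at day 40 and 26.6 at day 115, against 45.9 in unirradiated hosts. Its log2 differences were -0.45 (adjusted p = 0.0235), -0.53 (adjusted p = 0.0127) and -0.54 (adjusted p = 0.00355), and the day-5 call was lost without any one of the 4 unirradiated arrays (adjusted p up to 0.0844). With the cluster as a term the day-115 difference was -0.29 (adjusted p = 0.124). At day 115, where 15.1% of all tested probe sets were higher, another 3 of the 12 were called higher, so the share was not far above the background. Ctsw, cathepsin W of cytotoxic cells, was 2.08 above unirradiated hosts (adjusted p = 0.00797). Fitting the cluster as a term left 0.53 of this (adjusted p = 0.197). Stxbp2, the Munc18-2 protein needed for granule fusion, was 1.23 higher (adjusted p = 0.00336), of which the term left 0.76 (adjusted p = 0.0977). Its other tested probe set went the other way and passed, at -0.53 (adjusted p = 0.0261), so the direction of Stxbp2 is uncertain. Dimmer probe sets of Vamp8 and Rab7, which act in vesicle fusion and transport, passed at 0.85 (adjusted p = 0.0159) and 0.64 (adjusted p = 0.0149), while their brightest, at 0.71 and 0.03, did not. Lamp1, a granule membrane protein, was higher by 0.75 (adjusted p = 0.0127), and that call was lost without day-115 array 1 (adjusted p = 0.0569) and with the term (adjusted p = 0.0692). Ctsc, the protease that activates granzymes by removing an N-terminal dipeptide, did not pass at any time, with 0.19 at day 5, -0.17 at day 40 and -0.49 at day 115 (-0.13 with the term).

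Of 6 other mouse granzyme genes 4 were on the array, Gzmc, Gzmd, Gzmf and Gzmg, and none was bright enough to be tested, with group means between 13.8 and 25.2. Of the 6 serine protease inhibitors 2 were tested. Serpinb9, which blocks granzyme B, differed by -0.14 at day 5, 0.07 at day 40 and -0.31 at day 115, and did not pass. With the cluster as a term its day-115 value was 0.54 (adjusted p = 0.136). In the Fas and death receptor list 8 of 14 genes were tested, with median differences from unirradiated hosts of 0.03, -0.08 and 0.12. In these 3 comparisons 0 passed, where 0.794%, 1.5% and 27.9% of all tested probe sets did. That count is over each gene's brightest probe set, and a dimmer one of Lta, the gene of lymphotoxin alpha, was called lower at day 115, at -0.69 (adjusted p = 0.00918), where the brightest was at 0.19. The receptor gene Fas itself was under the filter, with means of 27.4 at day 5, 24.3 at day 40 and 23.8 at day 115, against 24.7 in unirradiated hosts. Casp8, the caspase that Fas engages, differed by 0.20, 0.27 and 0.22 at the 3 times, with adjusted p of 0.532, 0.45 and 0.38.

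The list around interferon gamma held 12 genes, of which 9 were tested, 0 rose at day 5, 3 at day 40 and 6 at day 115, and 0 fell. Of all tested probe sets 1.16% were higher at day 40 and 15.1% at day 115. A dimmer probe set of Jak2, a kinase of the receptor, was called lower at day 115, at -0.74 (adjusted p = 0.0308). Il18r1 and Il18rap, the subunits of the interleukin 18 receptor, rose by 1.50 (adjusted p = 0.000548) and 1.04 (adjusted p = 0.00185) at day 40. Stat4, which carries interleukin 12 signals, rose by 1.46 at day 40 (adjusted p = 0.00597). At day 115 Il18rap rose by 1.48, Il18r1 by 1.29, Ifngr1, a chain of the interferon gamma receptor, by 1.26 and Stat4 by 1.20, and with the cluster as a term only Il18rap and Il18r1 of the list remained past the threshold, while Ifngr1 was at 0.46 and Stat4 at 0.69. The calls of Socs1 and Il12rb1 at day 115 were each lost without day-115 array 2, with adjusted p of 0.0939 and 0.12. With the cluster as a term Socs1 was at 0.18 (adjusted p = 0.602) and Il12rb1 at 0.21 (adjusted p = 0.475). The list's median was 0.25 at day 5, 0.44 at day 40 and 0.94 at day 115, and that of all tested probe sets was 0.03, 0.03 and 0.01.

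Among 8 cytokine and chemokine genes 4 were tested, 0 rose at day 5 and 1 at each later time, and their median was 0.03, 0.14 and -0.02 at the 3 times. Of all tested probe sets 1.16% were higher at day 40 and 15.1% at day 115, so 1 of 4 at day 115 is not far above the background. Ccl5, a chemokine stored by memory CD8 T cells, averaged 2160 ± 484 at day 40 and 2109 ± 230 at day 115, against 316 ± 179 in unirradiated hosts (SD, n = 4, 3 and 4). Its differences were 2.84 (adjusted p = 0.00124) and 2.83 (adjusted p = 0.00092). Of 18 transcription factor genes 11 were tested, 0 rose, and 1 fell at day 5, 2 at day 40 and 2 at day 115, with a median of -0.05 at day 5 and -0.02 at day 115. Of all tested probe sets 0.794% were called either way at day 5, and 0.334% were lower at day 40. At day 115, 12.8% of all tested probe sets were lower and 15.1% higher, so 2 of 11 lower is close to the background. Bcl6, a repressor that opposes Blimp-1, fell by 0.74 at day 5 (adjusted p = 0.01), by 0.65 at day 40 (adjusted p = 0.0357) and by 0.79 at day 115 (adjusted p = 0.00327). Runx1 fell by 0.61 at day 40 (adjusted p = 0.0386) and by 0.74 at day 115 (adjusted p = 0.00391). The day-5 call of Bcl6 was lost without unirradiated array 4 (adjusted p = 0.0571). At day 40 the calls were lost without any one of 5 arrays for Bcl6 (adjusted p up to 0.139) and of 6 for Runx1 (adjusted p up to 0.156). With the cluster as a term, Bcl6 at day 40 and day 115 and Runx1 at both times were past the threshold no longer, with adjusted p of 0.0643, 0.0716, 0.0688 and 0.0822. At day 115 Id3 passed only with the term, at -0.77 (adjusted p = 0.0411), against 0.20 without it (adjusted p = 0.683). Eomes, a T-box factor known to drive perforin and granzyme B transcription, differed by 0.05, 0.19 and -0.04 at the 3 times and did not pass. Its dimmer probe set differed by 0.09, 0.15 and -0.84 and did not pass either (adjusted p = 0.222 at day 115).

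**Figure D4:**
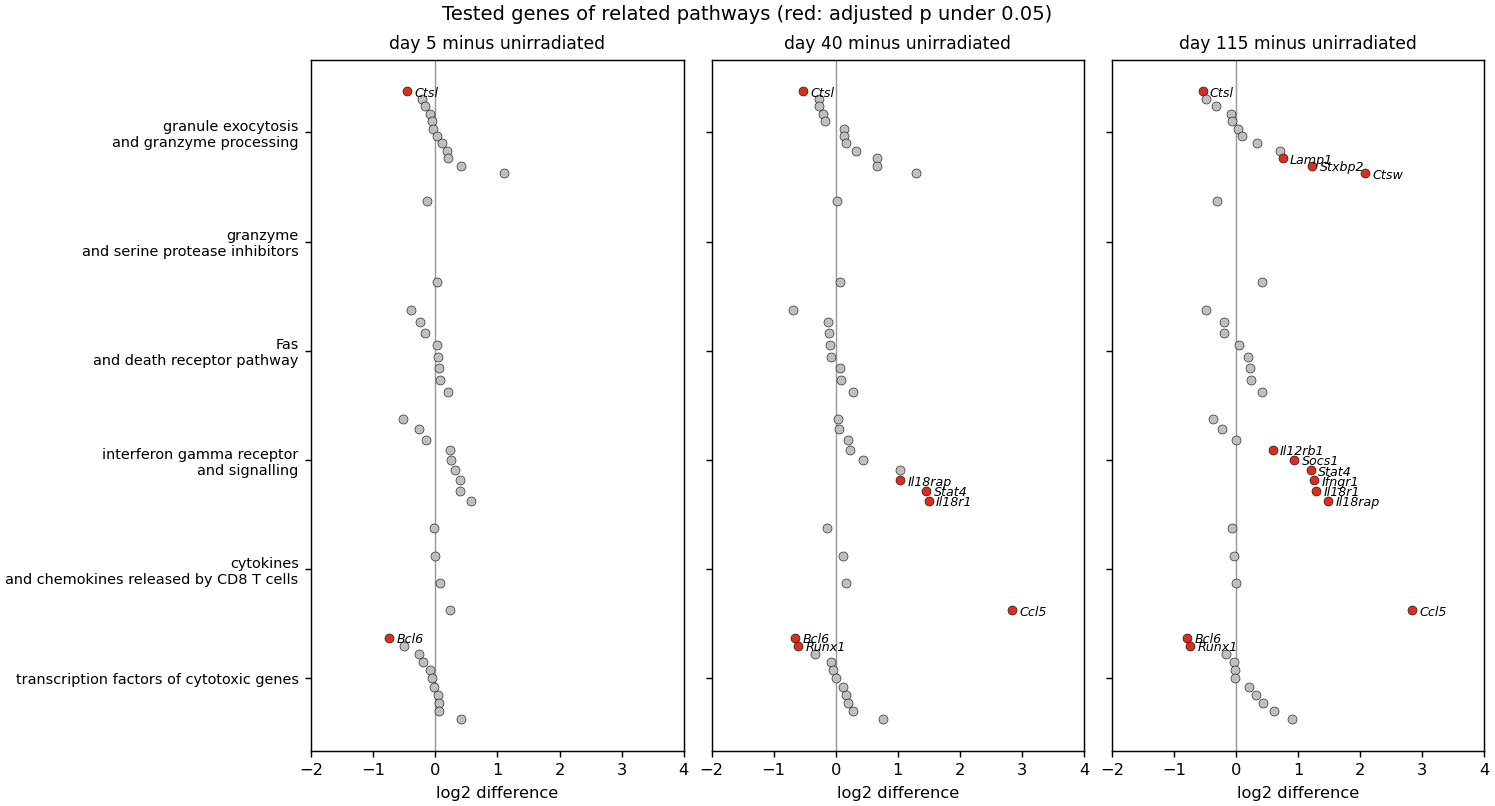
Log2 differences from unirradiated hosts of every tested gene in 6 pathway lists, at day 5, day 40 and day 115. Each point is a gene, ordered by its difference within its list, red where its adjusted p is under 0.05 and then named. Red points number 2 at day 5, and Ccl5 lies farthest to the right at day 40 and day 115, at 2.84 and 2.83.

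The genes whose signal followed each member most closely over the 19 arrays are given as descriptions, since points share groups and clusters. Prf1 was most like Fasl itself (r = 0.915, and 0.892 after cluster means were taken out), then Ptpn22 (0.897) and Ccl5 (0.882). Fasl was most like Pou6f1 (0.933), H2-Q10 (0.929) and Prss12 (0.92). Gzmm was most like Mapre2 (0.944), Pan2 (0.941) and Ifitm10 (0.933). Gzmb was most like Dlgap5, a mitotic spindle protein (0.725), then Gzma (0.71) and S100a4 (0.693), while Dlgap5 was 72.5 and 94.8 in day-5 arrays 3 and 4 and 51.6 to 73.3 in the other day-5 arrays. Gzma was most like Cd160 (0.772), which had 245 in day-5 array 3 and 85.2 to 119 in the other day-5 arrays, then S100a4 (0.77) and Cacng1 (0.754). Srgn was most like Ankrd49 (0.976, and 0.842 after cluster means were taken out), Ctse (0.972) and Atp6v1g1 (0.971).

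The promoters of the 3 genes that were higher late and of Gzmb, which was not, are shown because the members moved in different ways. The sequences are from RefSeq on GRCm38.p6, run 5′ to 3′ on the gene's strand and end just before its annotated start. Each is 250 bases long, except that of Prf1, which is 165. Capitals mark matches on either strand to the letters AGGTGT (T-box factors), TGTGGT (RUNX factors), TGANTCA (AP-1) and TTCNNNGAA (STAT factors), and no marked matches overlap.
Fasl promoter (chr1:161788496-161788745, minus strand): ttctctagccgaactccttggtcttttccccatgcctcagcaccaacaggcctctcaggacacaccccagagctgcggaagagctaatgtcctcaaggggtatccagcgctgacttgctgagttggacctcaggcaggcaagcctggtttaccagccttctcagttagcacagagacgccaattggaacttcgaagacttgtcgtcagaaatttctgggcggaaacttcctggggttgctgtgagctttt
Prf1 promoter (chr10:61297586-61297750, plus strand): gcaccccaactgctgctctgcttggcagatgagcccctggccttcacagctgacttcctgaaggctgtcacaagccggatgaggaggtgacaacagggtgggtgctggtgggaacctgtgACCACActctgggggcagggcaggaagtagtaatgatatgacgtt
Gzmm promoter (chr10:79688770-79689019, plus strand): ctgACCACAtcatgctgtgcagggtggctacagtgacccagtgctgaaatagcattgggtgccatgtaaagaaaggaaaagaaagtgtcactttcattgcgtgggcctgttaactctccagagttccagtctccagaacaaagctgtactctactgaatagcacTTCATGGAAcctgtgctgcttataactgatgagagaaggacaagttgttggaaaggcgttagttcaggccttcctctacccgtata
Gzmb promoter (chr14:56262335-56262584, minus strand): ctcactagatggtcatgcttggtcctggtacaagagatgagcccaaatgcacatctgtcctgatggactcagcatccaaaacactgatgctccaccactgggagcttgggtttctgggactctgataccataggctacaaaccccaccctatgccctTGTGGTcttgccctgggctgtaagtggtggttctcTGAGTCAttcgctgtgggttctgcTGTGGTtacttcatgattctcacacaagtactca
In these windows the T-box letters occurred 0 times. The RUNX letters occurred 1 time in Prf1, 45 bases before the start, 1 time in Gzmm, 247 bases before it, and 2 times in Gzmb, 93 and 34 bases before it. The STAT letters occurred 1 time in Gzmm, 86 bases before the start, and the AP-1 letters 1 time in Gzmb, 58 bases before it, while the Fasl window held none of the 4. Among 32851 promoter windows of 250 bases, 11.8% held the T-box letters, 14% the RUNX letters, 6.75% the AP-1 letters and 7.02% the STAT letters. In windows of 165 bases, 9.23% held the RUNX letters. The RUNX letters were thus in genes that were higher late and in Gzmb alike, and a match of letters does not show that a factor binds.

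In order of time, day 40 was the first sampled point at which Fasl, Prf1 and Gzmm passed against unirradiated hosts, and no point between day 5 and day 40 was sampled, so no order among the 3 can be read. No time was found at which the Gzma or Gzmb group differed past the threshold, and the highest Gzmb arrays were 2 of the 8 at day 5.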

How the data were processed

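The deposited table gives 1 intensity per probe set and array. The step by which the authors made them is not stated in the labels or file headers. Symbols came from the platform's probe table: of 12422 probe sets other than 66 controls, 10833 had 1 symbol, 396 several and 1193 none listed. No further normalization was applied. The 8695 probe sets whose mean exceeded 26.4 (the 30th percentile) were tested. A limma fit (version 3.58.1, R 4.3.3) of log2(signal + 16) over all 19 arrays had group as its factor and an intensity trend. Benjamini-Hochberg adjustment covered every tested probe set in each comparison. The script was tested on simulated data. Alternatives were pseudocounts of 1 and 64, no filter or the 50th percentile, quantile normalization, the cluster as a term, each cluster alone, a replicate block and leaving out each array. Groups came from titles, or descriptions for unirradiated hosts. The number of arrays limits the precision. All 8 genes were named. From each pathway list, up to 4 genes past the threshold per comparison with unirradiated hosts were named by size of difference. Fas, Casp8, Ctsc, Serpinb9, Eomes, Id3, the other granzymes, Socs1, Il12rb1, Lta, Jak2, Vamp8, Rab7, Klra3, Ctss and Ncr1 were named outside that rule, after their values were seen. So were the markers Thy1, H2-Aa, Ighm, Cd74, Jchain, Csf1r, Cma1, Cd4 and Sox13. A gene counted by its brightest probe set. The genes and lists were chosen with earlier results of these data known.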

Additional observations from a re-analysis of the deposited data

Results flagged for a closer look

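Of 24 groups of 4 or more arrays examined over the 8 genes, 4 held an array far from the others of its group. Chance gives about 1 in 20 groups if the signals are normally distributed, which was not tested. The rule takes the gap from an extreme array to the nearest one over the range of the group. It therefore passed over Gzmb at day 5, where arrays 3 and 4 were high together, at 426 and 423. Gzma had 118 in day-5 array 3, and Fasl had 39.3 in the same array, each the highest of 8. Gzmb had 136 in day-40 array 1, where the other 3 arrays had 70.2 to 79.5. Ifng had 34.5 in unirradiated array 2, where the other 3 had 10.6 to 11.6. The cause of these values was not tested.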

How the results depend on the processing

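In the comparisons with unirradiated hosts, the number of the 6 genes called was 0 at day 5, 3 at day 40 and 4 at day 115. It became 2 at day 115 with the cluster as a term and 1 at day 5 with the replicate block (Srgn, -1.65). For day 40 against day 5 it was 3, and it became 1 within cluster 1 and 1 with the replicate block. For day 115 against day 5 it was 3, and it was 2 within cluster 1 and with the replicate block, Prf1 being lost (adjusted p = 0.157 and 0.0694), and 4 without day-5 arrays 3 and 4 (Srgn, -1.44). With the replicate block it was 4 at day 40 against unirradiated hosts (Srgn, -1.44). Leaving out 1 array at a time gave 0 to 0 genes at day 5, 3 to 3 at day 40 and 4 to 4 at day 115 against unirradiated hosts, 2 to 3 for day 40 against day 5, 3 to 4 for day 115 against day 5 and 0 to 0 for day 115 against day 40. Of 21 same-numbered pairs 8 had deviations from the group means correlated above 0.1 (range -0.666 to 0.763), and 2 of 15 arrays correlated best with their own number. Cluster means were not taken out here, so this check cannot tell pairing from the clusters. Same-numbered day-5 and day-40 arrays had r of 0.639, 0.624 and 0.763 within a cluster and -0.666 across clusters. No called difference turned its sign, and 17 of 412 uncalled values did. With the cluster as a term, the day-40 Prf1 call against unirradiated hosts was lost without day-40 array 4 (adjusted p = 0.133).

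Counts over all tested probe sets were 69 at day 5, 130 at day 40 and 2427 at day 115 against unirradiated hosts, 109 for day 40 and 1205 for day 115 against day 5, and 8 between day 115 and day 40. Over the other settings they ranged from 32 to 1707, 111 to 407, 384 to 2897, 1 to 650, 111 to 1865 and 0 to 63, and with 1 array left out from 13 to 80, 54 to 138, 1554 to 2006, 25 to 187, 589 to 1653 and 3 to 87. Signals near the filter level limit what Gzmk, Ifng and the early Fasl and Gzmm values can show. The same holds for the irradiated values of Ctsl and Bcl6 and the late ones of Runx1.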
